A study of Mus musculus with 6 samples.

Results

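Organoid AEC2 cells are the type 2 alveolar epithelial cells (AEC2s) recovered from 2 lung organoid cultures, one grown with normal fibroblasts (FBs) and one with fibrogenic FBs. They were chosen by measured values. A barcode was kept with at least 10000 unique molecular identifiers (UMIs) and at least 2 Epcam UMIs. Scaled to counts per 1000000 of its own UMIs (CPM) it also needed at least 20000 of Sftpc, fewer than 1000 of Hopx, fewer than 1000 of Cldn4 and Sfn together, fewer than 200 of Mki67 and Top2a together, and fewer than 200 of Col1a1 and Col1a2 together. This gave 1871 cells, 1098 with normal FBs and 773 with fibrogenic FBs, of 14335 barcodes in these cultures and 33286 barcodes in the 6 libraries of the study.

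The study profiled Pdgfra-expressing lung FBs of the mouse by droplet single-cell RNA sequencing and asked what normal and fibrogenic FBs do to AEC2s in organoids. AEC2s came from SpcCreER, tomato+ donors given 2 doses of 1 mg/kg tamoxifen, in which Cre is active in cells that express Sftpc. The FBs were GFP+ PDGFRa+ cells of PDGFRa-EGF donors (as labelled, a GFP reporter of Pdgfra) that had received PBS (normal) or 2 U/kg bleomycin (fibrogenic) by oropharyngeal aspiration and were harvested on day 14. Cells of 3 mice were pooled for each cell type, and AEC2s and FBs were mixed at 10 to 1 according to the labels, then cultured in Matrigel for 2 weeks. The methods text instead lists more FBs than AEC2s in the mix, so the ratio is uncertain. The labels give no dose but tamoxifen for the AEC2 donors, so the cultures differed in what the FB donors had received. Whether both cultures drew on one pool of AEC2s was not stated. Each culture gave 1 library, so the spread between cultures is unknown and no difference was tested.

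AEC2s make pulmonary surfactant, a mixture of phospholipids and surfactant proteins, and store it in lamellar bodies before secretion. They also secrete host defence proteins and carry major histocompatibility complex (MHC) class II on their surface. As the progenitors of the alveolus they renew themselves and give rise to the flat type 1 cells (AEC1s), passing through transitional states with high Cldn4, Sfn and keratins. Pdgfra+ FBs lie beside them in the lung and sustain this activity in organoids.

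The AEC2 markers that the rule did not use fitted the name. Sftpb, Sftpd, Abca3, Lamp3, Napsa, Slc34a2, Etv5 and Cxcl15 were detected in 96.1% (Etv5, normal) to 100% of members of a library, and Sftpa1 in 97.4% (normal) and 92.9% (fibrogenic). The AEC1 genes Akap5 and Clic5 stood at 24.9 and 9.01 CPM in members with normal FBs, against 989 and 1044 CPM in Hopx-high barcodes, epithelial barcodes with at least 1000 CPM of Hopx and fewer than 20000 CPM of Sftpc. Ager, also an AEC1 gene, was measured in the members at 623 and 550 CPM, against 6090 and 4984 CPM in those barcodes. Aqp5 was less apart, at 921 and 697 CPM against 2166 and 2409 CPM. Of other AEC1 genes, Emp2 had a UMI in 97.5% and 96.2% of members, whereas Cav1 and Rtkn2 had one in at most 5.69%. Transitional markers outside the rule were also measured, with a UMI in 49.9% (Itgb6, normal) to 100% (Krt8, fibrogenic) of members. Tyrobp of myeloid cells had a UMI in 0% and 0.259% of members, whereas Cd68, a lysosomal protein of macrophages, had one in 23.4% and 20.1%. The endothelial marker Pecam1 had a UMI in 6.38% and 9.70% of members (1.81 and 2.74 CPM). Cdh5 of endothelial cells and Krt5 of basal airway cells had 0 UMIs, which allows a share of up to 0.273% of normal and 0.388% of fibrogenic members with a UMI. This limits cells with a UMI and not cells that express the gene. The 12 immune markers summed to 8.07 and 7.93 CPM. FB markers were not absent and are described with the genes they touch.

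Both organoid libraries were deep, with 211680702 (normal) and 238618743 (fibrogenic) UMIs. Of all barcodes, 30.3% (normal) and 60.1% (fibrogenic) had fewer than 10000 UMIs. Members had a median of 43273 UMIs and 6068 genes with normal FBs and of 42320 UMIs and 6096 genes with fibrogenic FBs. Their UMIs summed to 52058694 and 34698827. Mitochondrial transcripts took a median of 5.08% and 5.81%. The libraries shared 13 barcode sequences, and 0 of them belonged to members. Doublets were kept because Scrublet marked only 2 normal barcodes and 0 fibrogenic barcodes, which is too few for the caller to have worked, and 0 members were marked.

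Members made up 20.2% (95% Clopper-Pearson interval, 19.1 to 21.3) of normal barcodes and 8.69% (8.11 to 9.30) of fibrogenic barcodes. Among barcodes that passed the UMI and Epcam limits, the shares were 60.4% (58.1 to 62.6) of 1819 and 53.7% (51.1 to 56.3) of 1440. Among those that also passed the Sftpc limit they were 74.7% (72.4 to 76.9) of 1469 and 75.1% (72.4 to 77.7) of 1029. The gap between the libraries was thus wide over all barcodes and narrowed to overlapping intervals among Sftpc-high cells. These intervals, like those given below, cover counting error only. Fewer cells and less RNA per cell cannot be told apart in a share of this kind.

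With normal FBs the member of lowest Sftpc held 20734 CPM and the nearest barcode outside 19923, and with fibrogenic FBs these values were 20993 and 17338. Hopx was 989 inside and 1018 outside (normal), and 970 inside and 1021 outside (fibrogenic). For Cldn4 and Sfn the values were 988 and 1043, and 821 and 1114. Mki67 and Top2a gave 188 inside in both libraries, and 202 and 256 outside. Col1a1 and Col1a2 gave 180 inside and 226 outside with normal FBs, and 199 inside and 200.25 outside with fibrogenic FBs. The UMI limit fell between 10316 and 9832, and between 10000 and 9717. A further 85 normal and 73 fibrogenic barcodes missed membership through the Hopx limit alone, and 146 and 69 through the limit on Mki67 and Top2a. The rule genes have no reading as results. Summed over members, Sftpc stood at 85007 (normal) and 87181 CPM (fibrogenic), Epcam at 249 and 289, Hopx at 78.8 and 72.1, and Sfn at 84.0 and 120 CPM.

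The AEC2s of the cultures were alike in most of their transcriptome. UMIs were summed over the members of each library and expressed as CPM, and the log2 ratio of fibrogenic over normal was taken after adding 1 CPM. Of 7644 genes with a mean of at least 10 CPM, 97.2% lay within 0.5 of a log2 ratio of 0, with a median of 0.02 and a 5th to 95th percentile of −0.24 to 0.30. With 1 library a side, a gene was said to have risen or fallen when its log2 ratio passed 1 in size. By that rule 18 genes (0.235% of those counted) rose with fibrogenic FBs and 10 genes (0.131%) fell. A pseudocount of 10 CPM left 5 and 6 genes, and a minimum of 50 CPM left 3 and 6, whereas no minimum gave 42 and 15. Apart from the pseudocount of 10 CPM, 12 of the 28 genes kept a log2 ratio past the limit in every setting tried, whether or not the setting counted them. Ramp1, Nebl, Apoe, Crym, Clstn2 and St6gal1 were those that rose, and Phgr1, Pglyrp1, Cd177, Dmkn, Meg3 and Ptprn2 those that fell. The other called genes, described as risen or fallen below, fell short of the limit in at least 1 more setting. Settings that changed only which genes were counted could not move a ratio.

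**Figure D1:**
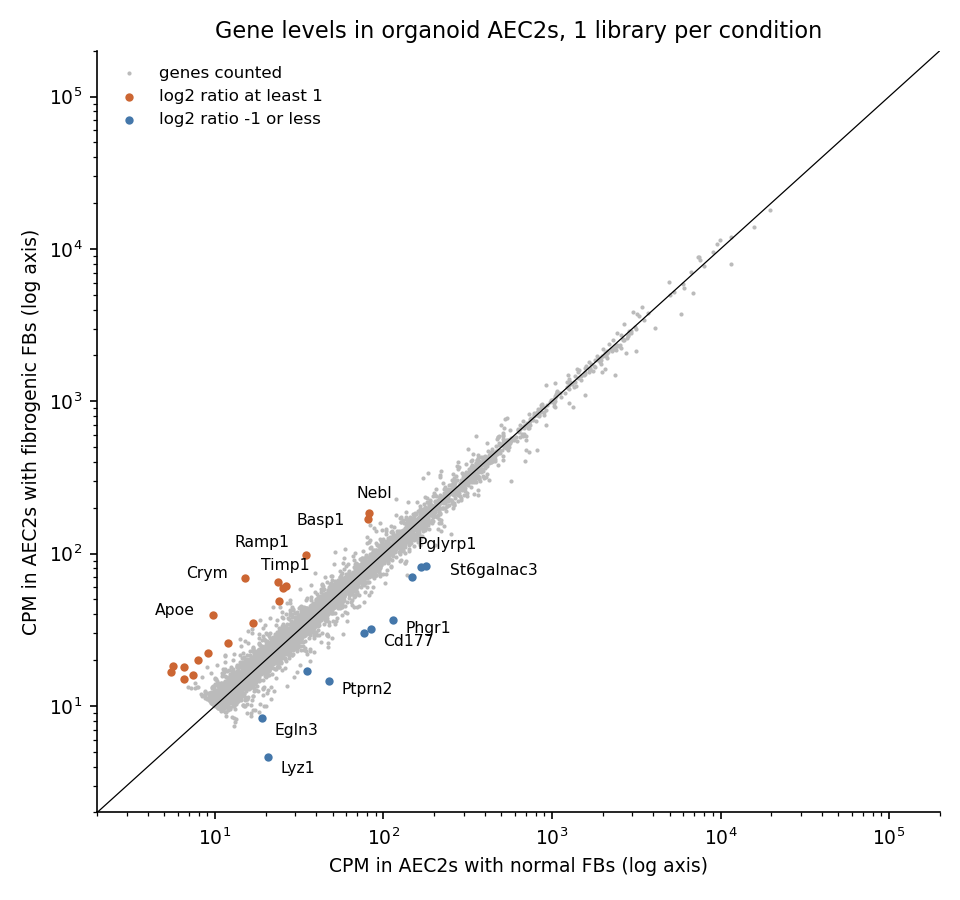
CPM of each of 7644 genes in AEC2s with normal FBs (x axis) and with fibrogenic FBs (y axis), both on log axes, 1 point per gene and 1 library per axis. Most points lie along the line of equality, the 18 genes with a log2 ratio of at least 1 lie above it, and the 10 genes at −1 or less lie below it.

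Pglyrp1, Cd177 and Lyz1 were among the 10 genes that fell. Pglyrp1, a secreted peptidoglycan recognition protein that binds bacterial cell walls, stood at 178 CPM (95% Poisson interval, 175 to 182) with normal FBs and 83.0 CPM (80.0 to 86.1) with fibrogenic FBs, a log2 ratio of −1.09. It had a UMI in 82.8% and 60.4% of members, against 5.35% and 2.34% of FB barcodes. FB barcodes are those with at least 2000 UMIs, 0 Epcam UMIs and at least 1000 CPM of Col1a1 and Col1a2, with a median of 47970.5 and 37604.5 UMIs. The lower level was thus spread over many cells. Cd177, a surface glycoprotein best known from neutrophils, fell from 84.1 to 31.9 CPM (−1.37), with a UMI in 42.8% and 19.8% of members. Lyz1, a lysozyme of Paneth cells, fell from 20.6 to 4.64 CPM (−1.94), but 10 cells held 83.0% of its normal UMIs, and its log2 ratio was 0.46 among members without a UMI of Col1a1 or Col1a2. Lyz1 is a close paralog of Lyz2, and how the counting divided reads between them is uncertain.

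Other genes that fell serve varied functions. Phgr1, a small protein of gut epithelium, fell from 114 CPM (111 to 117) to 36.5 CPM (34.5 to 38.6), a log2 ratio of −1.62, and was detected in 63.8% and 33.4% of members. Ptprn2, a phosphatase-like protein of secretory granules, fell from 47.5 to 14.5 CPM (−1.64). Dmkn, a secreted epithelial protein, stood at 149 and 70.3 CPM (−1.07), and St6galnac3, a sialyltransferase that modifies glycans, at 166 and 81.8 CPM (−1.02). In each of these genes fewer fibrogenic than normal members had a UMI, from 50.2% down to 26.6% for Ptprn2 and from 66.5% down to 44.5% for St6galnac3. Meg3, a long noncoding RNA of an imprinted locus, fell from 76.2 to 30.3 CPM (−1.30), yet only 11.8% and 6.99% of members had a UMI, and 10 cells held 37.6% and 79.2% of its UMIs. Parm1, a mucin-like membrane protein, fell from 35.3 to 17.03 CPM (−1.01). Egln3, a prolyl hydroxylase of the hypoxia response, fell from 19.0 to 8.30 CPM (−1.10).

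Among the genes that rose, Crym had the highest log2 ratio. Crym, a crystallin that binds thyroid hormone, rose from 15.1 CPM (14.0 to 16.2) to 69.0 CPM (66.3 to 71.8), a log2 ratio of 2.12. It was detected in 6.28% of normal and 17.3% of fibrogenic members, against 0.916% and 2.11% of FB barcodes. A minority of cells therefore carried it, and 10 cells held 72.3% and 46.2% of its UMIs. Ramp1, a subunit of the receptor for the neuropeptide CGRP, rose from 34.6 CPM (33.0 to 36.2) to 97.9 CPM (94.7 to 101), a log2 ratio of 1.47, and was detected in 47.4% and 74.1% of members. Nebl, an actin-binding protein of the nebulin family, rose from 82.4 to 186 CPM (1.16), and St6gal1, a sialyltransferase that caps N-glycans, from 25.4 to 59.3 CPM (1.19). Basp1, a membrane-bound signalling protein, rose from 80.5 to 169 CPM (1.06), Add3, an adducin of the membrane skeleton, from 16.9 to 35.3 CPM (1.02), and Rgs4, a brake on G protein signalling, from 24.1 to 49.2 CPM (1.00). Ramp1 and Nebl had a UMI in at most 6.47% of FB barcodes.

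A second set of the genes that rose stood far higher in FBs. Vim, Apoe, Plat, Tagln, Lgals1, Acta2 and Timp1, which make 7 of the 18, had more than 5 times the member level in FB barcodes, against 0 of the 10 genes that fell. Acta2, the actin of contractile cells, rose from 6.53 to 18.0 CPM (1.34) in members and stood at 779 and 1374 CPM in FB barcodes. Timp1, an inhibitor of matrix metalloproteinases, rose from 23.7 to 64.7 CPM (1.41), against 4522 and 4747 CPM in FBs, and 1 fibrogenic member held 589 of its 2244 UMIs. Tagln, a smooth muscle protein, also rested on few cells, since 1 fibrogenic member held 406 of 770 UMIs, and its log2 ratio was −0.27 among members without a UMI of Col1a1 or Col1a2. Without the member of most UMIs in each library, the log2 ratio of Tagln was 0.58 and that of Vim, an intermediate filament protein, 0.85. Apoe, a lipid carrier, rose from 9.76 to 39.7 CPM (1.92), against 426 and 372 CPM in FBs, and 10 cells held 52.95% and 58.8% of its UMIs. Of 108 genes more than 5 times higher in FB barcodes, 7 rose (6.48%), with a median log2 ratio of 0.18 and 79 above 0. Of the 7536 other genes 11 rose (0.146%), with a median of 0.02. Vim, Apoe, Plat, Tagln and Acta2 lay below 10 CPM with normal FBs, so they reached the minimum mean only through the fibrogenic library. Clstn2, Tmprss7 and Plcb4, which also rose, reached it in the same way. The minimum thus admitted such genes by the level compared, and no conclusion is drawn from these shares. Named after their values were seen, Clstn2 (5.65 and 18.4 CPM, 1.54, with 48.3% and 37.3% of its UMIs in 10 cells), the membrane protease gene Tmprss7 (1.08), 5330417C22Rik (1.05), the phospholipase gene Plcb4 (1.02), Plat, the tissue plasminogen activator (1.45), and Tagln (1.19) complete the genes that rose.

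**Figure D2:**
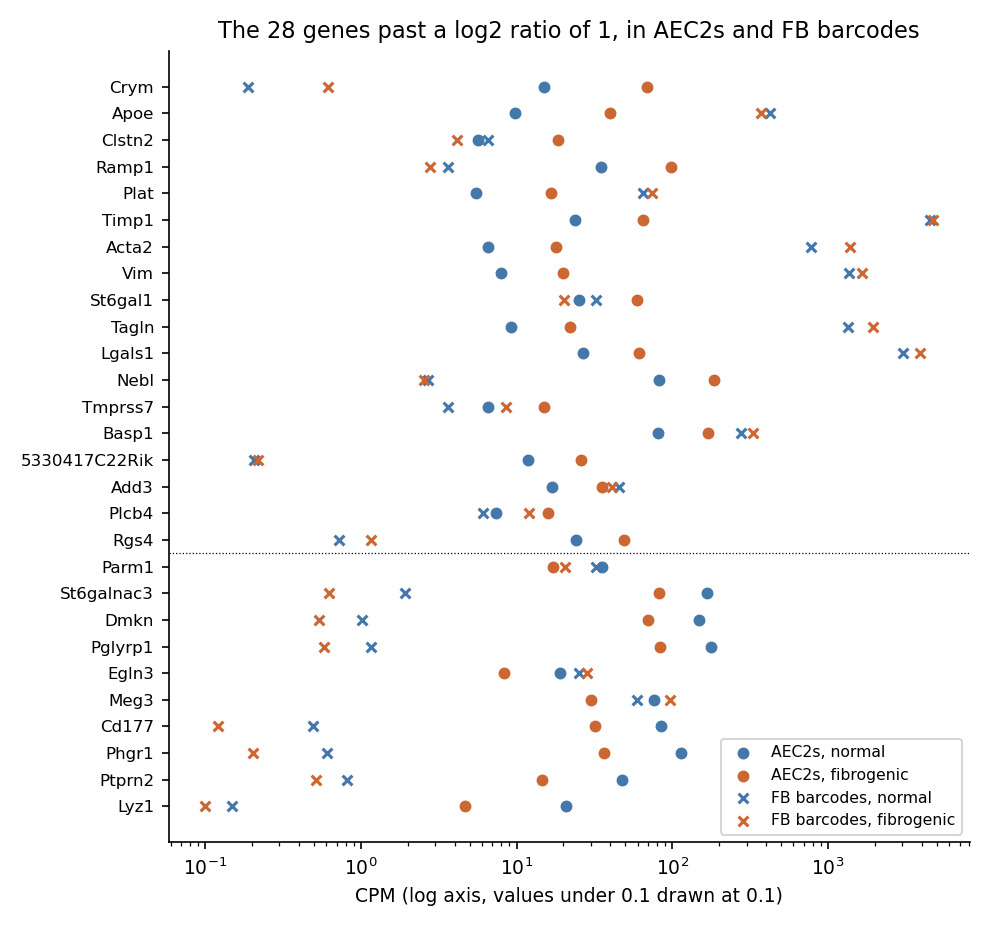
Level in CPM (log x axis) of the 28 genes past a log2 ratio of 1, in AEC2s (dots) and in FB barcodes (crosses) of each library, 1 row per gene ordered by log2 ratio, with the 10 genes that fell at the bottom. For Vim, Apoe, Plat, Tagln, Lgals1, Acta2 and Timp1 the crosses lie far to the right of the dots, and for Pglyrp1, Phgr1, Ramp1 and Nebl far to the left.

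Markers of FBs were measured in the members. Col3a1, a fibrillar collagen, stood at 21.3 and 37.6 CPM, with a UMI in 60.3% and 76.3% of members, against 3225 and 2992 CPM in FB barcodes. Mgp, a matrix protein abundant in lung FBs, stood at 319 (normal) and 484 CPM (fibrogenic) in members and at 57311 and 42237 CPM in FBs. Of the 18 FB markers, 6 were counted apart from the rule genes, 5 of them above 0, 1 of them (Vim) risen, with a median log2 ratio of 0.69. Over all 7644 genes, 4320 lay above 0 and 0.235% rose. Pdgfra, the gene of the sorted FBs, had 0.40 and 0.81 CPM in members, against 78.8 and 72.8 CPM in FB barcodes. Col6a1, in contrast to the other markers counted, was lower with fibrogenic FBs, at 36.8 and 19.8 CPM in members (−0.86). Summed over the 16 markers outside the rule, a member held a median of 743 (normal) and 985 CPM (fibrogenic). Sparc, a matrix glycoprotein that made 47.8% and 41.3% of the UMIs in that sum, is not particular to FBs here, at 2516 and 2311 CPM in Hopx-high barcodes against 379 and 434 CPM in members. Without Sparc the medians were 403 and 577 CPM, a sum chosen after seeing the data. AEC2 RNA was likewise counted in FB barcodes, where Sftpc stood at 343 and 455 CPM. The part of FB RNA in the higher levels of Vim, Apoe, Timp1 and the like was not tested. Col1a1 and Col1a2 were limited by the rule itself, so these values describe what passed it.

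Of the 3 surfactant proteins that the rule did not use, 0 passed the limit (against 0.366% of all genes), and the collectins lay further below 0 than Sftpb. Sftpa1 encodes surfactant protein A, which binds lipids and microbes, and stood at 2376 CPM (2363 to 2389) with normal FBs and 1481 CPM (1468 to 1494) with fibrogenic FBs, a log2 ratio of −0.68. Sftpd, the gene of surfactant protein D, had 2747 and 2063 CPM (−0.41). Sftpb, whose product spreads the surfactant film, had 8017 and 7677 CPM (−0.06). A normal member drawn at random, after thinning to 10000 UMIs, had more Sftpa1 than a fibrogenic member in 61.8% of pairs and less in 34.9%, so the distributions overlapped widely.

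Lamellar body genes had a median log2 ratio of −0.02, and 0 of 15 passed the limit (against 0.366% of all genes). Lamp3, a lamellar body membrane protein, stood at 692 and 694 CPM, and Slc34a2, the phosphate transporter that clears phosphate from surfactant, at 2116 and 2144 CPM. Abca3, the pump that loads surfactant lipids, stood at 281 and 250 CPM (−0.17). The lowest members were Acoxl (203 and 114 CPM, −0.83), Napsa, a protease that trims pro-surfactant proteins (4061 and 3007 CPM, −0.43), and Ctsh, which shares that work (1979 and 1565 CPM, −0.34).

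In 3 lists of lipid genes 0 passed the limit, against 0.366% of all genes, a count near the background. Fatty acid synthesis had 8 genes above and 8 below 0, with a median of −0.00 and 0 of 16 past the limit. Its highest members were Fasn, the fatty acid synthase (923 and 1273 CPM, 0.46), Srebf1, a transcription factor that drives such genes (51.9 and 66.3 CPM, 0.35), and Scd1, a desaturase (7438 and 8828 CPM, 0.25). Its lowest were Elovl1, a fatty acid elongase (2562 and 2240 CPM, −0.19), Acsl4, an acyl-CoA synthetase (675 and 591 CPM, −0.19), and Gpam, which starts glycerolipid synthesis (94.5 and 84.7 CPM, −0.16). Cholesterol synthesis had 19 of 21 genes below 0, a median of −0.14 and 0 past the limit. Fdps, which makes farnesyl pyrophosphate, stood at 704 and 557 CPM (−0.34). Genes of lipid uptake and droplets had 4 above and 6 below 0, with a median of −0.07 (0.04 with no minimum level) and 0 of 10 past the limit. G0s2, an inhibitor of triglyceride lipase, was highest at 32.1 and 44.8 CPM (0.47), followed by Plin3 (0.12) and Hilpda (0.07), both proteins of lipid droplets. Fabp5, a fatty acid carrier, was lowest at 5799 and 3768 CPM (−0.62), followed by Cd36, a fatty acid receptor (214 and 158 CPM, −0.44), and Plin2, the coat of lipid droplets (408 and 320 CPM, −0.35).

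Host defence genes included 2 of the genes that fell, Lyz1 and Cd177, among 18 counted (against 0.131% of all genes), with a median of −0.11 against 0.02 over all genes. Both had been named in earlier work on these libraries, so no conclusion about the group is drawn from their count. Lyz1 rested on few cells and turned to 0.46 among members without a collagen UMI, as given above. Cxcl15, a lung chemokine, stood at 11494 (11465 to 11523) and 7982 CPM (7953 to 8012), a log2 ratio of −0.53. Lyz2, the lysozyme of AEC2s and macrophages, stood at 7335 and 8911 CPM (0.28), Hc, complement component C5, at 217 and 317 CPM (0.55), and Lcn2, which withholds iron from bacteria, at 6030 and 5888 CPM (−0.03). Levels in this group thus lay on both sides of 0. Tmem213, on no list, was among the lowest genes short of the limit, at 573 and 298 CPM (−0.94), as was Cxcl3, a neutrophil chemokine, at 57.4 and 29.7 CPM (−0.93).

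Glycolytic enzymes were lower together in AEC2s with fibrogenic FBs. Of 24 genes of glycolysis and the hypoxia response, 21 were counted, 19 of them below 0, with a median log2 ratio of −0.53 against 0.02 over all genes, and 1 (Egln3) fell past the limit, against 0.131% of all genes. To show the promoters of members of this group, the 250 bases before the transcription start are given from RefSeq (build GRCm38.p6), with ACGTG on either strand in capitals. Those letters are the usual core of the element bound by hypoxia-inducible factors. Coordinates are chrX:106186850-106187099 (+ strand) for Pgk1, chr7:46845554-46845803 (+) for Ldha and chr12:54203875-54204124 (−) for Egln3.
Pgk1: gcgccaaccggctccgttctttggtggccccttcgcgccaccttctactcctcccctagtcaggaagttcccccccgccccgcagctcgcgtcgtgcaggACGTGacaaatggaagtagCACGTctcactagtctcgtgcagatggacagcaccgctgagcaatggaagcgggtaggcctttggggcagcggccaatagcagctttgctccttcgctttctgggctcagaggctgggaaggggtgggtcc
Ldha: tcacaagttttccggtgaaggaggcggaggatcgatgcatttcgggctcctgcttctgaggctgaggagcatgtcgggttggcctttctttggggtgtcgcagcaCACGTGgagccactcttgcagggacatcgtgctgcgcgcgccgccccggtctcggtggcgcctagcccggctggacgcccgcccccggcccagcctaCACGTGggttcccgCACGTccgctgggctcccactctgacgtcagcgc
Egln3: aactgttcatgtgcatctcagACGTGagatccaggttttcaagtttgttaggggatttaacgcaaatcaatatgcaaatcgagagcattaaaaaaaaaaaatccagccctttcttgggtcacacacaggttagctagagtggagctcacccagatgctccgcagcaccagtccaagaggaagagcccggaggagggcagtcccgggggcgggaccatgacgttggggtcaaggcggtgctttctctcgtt
The letters began 150 and 131 bases before the start in Pgk1 and 229 bases before it in Egln3. In Ldha there were 5 matches, 4 of which were 2 palindromic sites read on both strands, and a second RefSeq start of Ldha had 0 matches. ACGTG was found in 14 of the 23 listed genes with a promoter in the table, and in 16.57% of all 32851 promoters of this length. A gene can have several promoters, and 16 of the list's 33 promoters held the letters. A match is a description of the sequence and no evidence of binding.

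Along the pathway the values ran the same way from uptake to lactate export. Hk2, which traps glucose in the cell, stood at 61.1 and 40.8 CPM (−0.57), and Slc2a1, the glucose transporter, at 38.2 and 32.3 CPM (−0.24). Aldoa and Tpi1, of the middle steps, stood at 1329 and 918 CPM (−0.53) and at 727 and 468 CPM (−0.63). Gapdh stood at 3161 CPM (3146 to 3176) and 2140 CPM (2124 to 2155), a log2 ratio of −0.56. Each of these genes had the lower level in the fibrogenic library, and 0 of them passed the limit. Pgk1, which makes ATP in the pathway, stood at 692 CPM (685 to 699) and 407 CPM (400 to 413), a log2 ratio of −0.77, and was higher in the normal cell in 65.0% of thinned pairs and lower in 27.8%. Pkm, the pyruvate kinase, had 703 and 478 CPM (−0.55), Ldha, which makes lactate, had 1572 and 1104 CPM (−0.51), and Slc16a3, the lactate exporter, had 60.4 and 36.2 CPM (−0.72). The exceptions were Pfkfb3, a regulator of phosphofructokinase (11.4 and 17.5 CPM, 0.58), and Vegfa, an angiogenic factor induced by hypoxia (84.8 and 89.1 CPM, 0.07).

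Per cell, the list summed to a median of 9388 CPM (25th to 75th percentile, 6270 to 12767) with normal FBs and 5091 CPM (3256 to 9176) with fibrogenic FBs. The middle ranges overlapped, and the highest cell held 35534 and 36014 CPM. In other barcodes of the same libraries, each compared fibrogenic with normal, the median log2 ratio of the list was −0.17 in the 118 and 112 Hopx-high barcodes, −0.07 in the 156 and 189 Cldn4/Sfn-high barcodes and −0.13 in the 156 and 72 cycling barcodes. These 2 last groups are epithelial barcodes with at least 1000 CPM of Cldn4 and Sfn, and with at least 200 CPM of Mki67 and Top2a, respectively. Of the cycling barcodes, 146 (normal) and 69 (fibrogenic) met every other limit for members. In FB barcodes the median of the list was 0.27, with 21 of 23 genes above 0. Whether these values differ from that of the AEC2s was not tested.

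**Figure D3:**
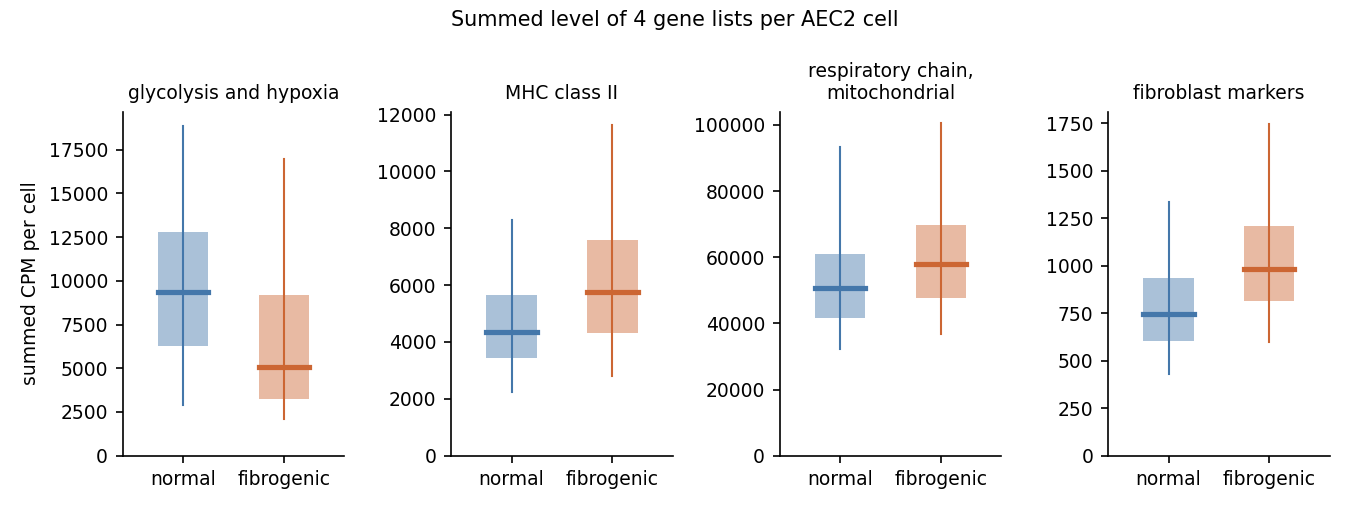
Summed CPM per AEC2 cell (y axes, from 0) of 4 gene lists, for 1098 members with normal and 773 with fibrogenic FBs. Thick lines are medians, boxes the 25th to 75th percentile and thin lines the 5th to 95th percentile over cells. The median is lower with fibrogenic FBs for glycolysis and hypoxia (9388 and 5091 CPM) and higher for MHC class II (4344 and 5756 CPM), with overlapping boxes.

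Mitochondrially encoded genes of the respiratory chain were slightly higher. All 13 lay above 0, from 0.09 in mt-Co2 to 0.37 in mt-Nd4l, with a median of 0.20 and 0 past the limit. Over all 7644 genes, 4320 lay above 0 and 0.366% passed the limit. These 13 genes make up the mitochondrial share of UMIs given above (medians of 5.08% and 5.81%), so both describe one measure. mt-Cytb, of complex III, stood at 4915 and 6059 CPM (0.30), and mt-Nd4, of complex I, at 2660 and 3233 CPM (0.28). The 35 nuclear genes of the chain had a median of −0.02, from −0.14 to 0.18, near that of all genes. Over all settings tried, including removal of members above 10% mitochondrial UMIs, the median of the 13 genes lay between 0.16 and 0.21. That removal cuts on the sum of these same genes. In the cycling barcodes 13 of 13 genes also lay above 0 (median 0.26), and in the Hopx-high barcodes 6 of 13 did (−0.02).

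MHC class II genes were higher together with fibrogenic FBs. These genes present peptides of extracellular proteins to CD4+ T cells, and AEC2s are among the few epithelial cells that carry them at rest. The 7 genes counted of 10 all lay above 0, with a median log2 ratio of 0.46 and 0 past the limit. Among all 7644 genes, 4320 lay above 0 and 0.366% passed the limit. The promoters of a pair of chain genes are given from RefSeq (GRCm38.p6, 250 bases before the start), with ATTGG on either strand in capitals, letters within the Y box that such promoters share. They lie at chr17:34287824-34288073 (− strand) for H2-Aa and chr17:34305617-34305866 (+) for H2-Eb1.
H2-Aa: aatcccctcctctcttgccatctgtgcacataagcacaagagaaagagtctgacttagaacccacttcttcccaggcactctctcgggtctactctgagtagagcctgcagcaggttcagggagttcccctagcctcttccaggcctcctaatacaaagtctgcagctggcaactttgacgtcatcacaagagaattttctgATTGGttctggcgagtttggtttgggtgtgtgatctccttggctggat
H2-Eb1: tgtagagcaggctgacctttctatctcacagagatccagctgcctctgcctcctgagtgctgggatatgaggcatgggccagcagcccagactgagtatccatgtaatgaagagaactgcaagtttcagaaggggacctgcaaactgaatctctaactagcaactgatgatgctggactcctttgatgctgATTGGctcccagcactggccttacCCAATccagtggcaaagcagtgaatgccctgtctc
The letters lay 48 bases before the start of H2-Aa and 59 and 35 bases before that of H2-Eb1. They were found in 7 of 8 promoters of the list, which belong to 7 genes, and in 33.85% of all promoters, so they are common. H2-Ab1, Cd74 and Ciita had no promoter in the table.

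Among the genes above the level limit, the chains of the surface molecule had the highest ratios. H2-Eb1 stood at 276 CPM (272 to 281) and 400 CPM (393 to 406), a log2 ratio of 0.53, H2-Ab1 at 544 and 773 CPM (0.51), and H2-Aa at 499 and 704 CPM (0.49). H2-Ab1 was higher in the fibrogenic cell in 61.0% of thinned pairs and lower in 31.9%. Cd74, the invariant chain that guards the groove, stood at 3030 CPM (3015 to 3045) and 3850 CPM (3829 to 3871), a log2 ratio of 0.35. Ciita, the master coactivator of these genes, stood at 19.7 and 27.3 CPM (0.46). Of the peptide loaders, H2-DMa stood at 99.9 and 125 CPM (0.32) and H2-DMb1 at 151 and 161 CPM (0.09). H2-DMb2, also a loader chain but below the level limit, had the highest ratio of the list, with 105 and 183 UMIs (2.02 and 5.27 CPM, 1.06). Also below it, H2-Oa had 1 and 4 UMIs, and H2-Ob had 0 UMIs in both.

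As a measure of free RNA, H2-Aa had 2.83 and 4.28 CPM in FB barcodes and a UMI in 12.6% and 14.4% of them, against 99.5% and 99.9% of members. Of the immune markers, Ptprc and Tyrobp had at most 0.12 CPM in members, whereas Csf1r had 0.77 and 1.01 CPM and Cd68 had 6.28 and 5.91 CPM. Per cell, the 10 genes summed to a median of 4344 CPM (25th to 75th percentile, 3423 to 5654) and 5756 CPM (4324 to 7600). In the other epithelial barcodes the list's median was −0.18 in Hopx-high (0 of 7 genes above 0), −0.49 in Cldn4/Sfn-high (0 of 6) and 0.16 in cycling barcodes (6 of 7). MHC class I genes had a median of 0.08 (8 of 10 above 0, and 0.23 with a minimum of 50 CPM), and the interferon response had a median of −0.18 (6 of 8 below 0), with Isg15 at 18.2 and 9.08 CPM (−0.93).

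**Figure D4:**
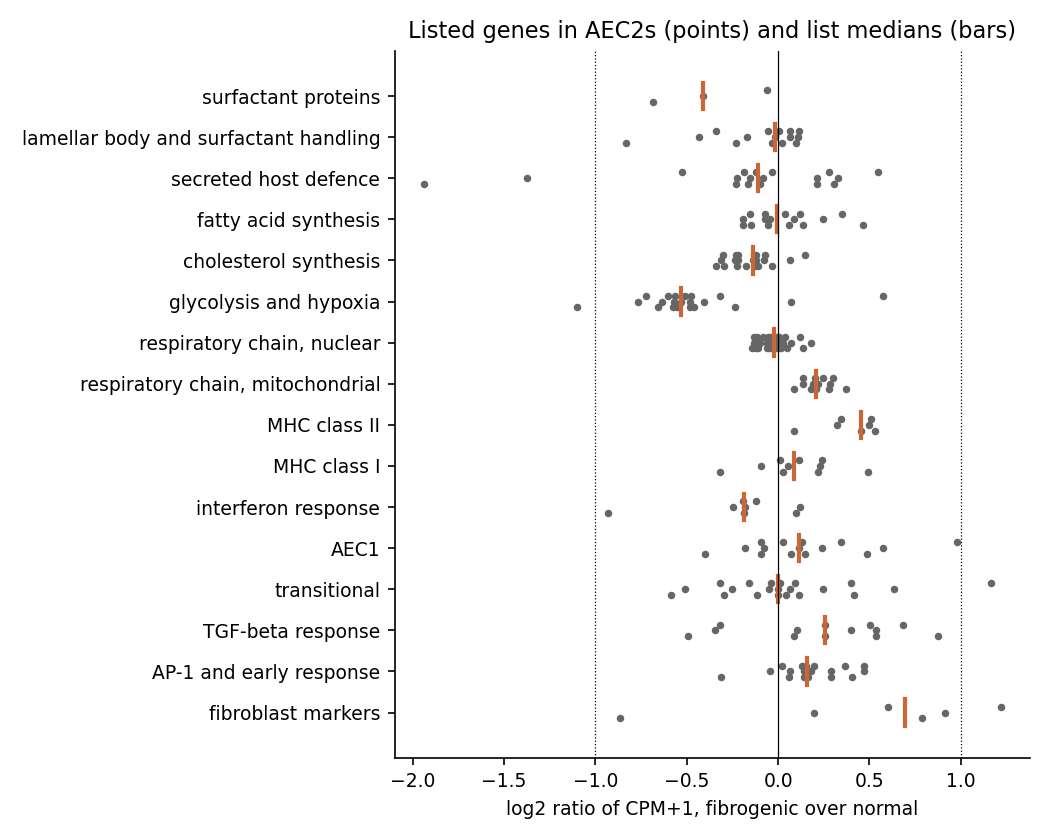
Log2 ratio of CPM + 1, fibrogenic over normal (x axis), for each gene counted on 16 lists in AEC2s (points) and the median of each list (bars), 1 library per condition. Dotted lines mark −1 and 1. Medians range from −0.53 for glycolysis and hypoxia to 0.46 for MHC class II and 0.69 for FB markers.

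Regulators of AEC2 identity stood at like levels. Nkx2-1, the lineage factor of lung epithelium, had 167 and 168 CPM, Cebpa 235 and 234 CPM, and Etv5, a mediator of FGF signals, 139 and 137 CPM. Of 19 such factors and receptors 0 passed the limit (against 0.366% of all genes), with a median of 0.10 (−0.06 with a minimum of 50 CPM). Sox9, a factor of distal lung progenitors, was highest at 29.0 and 43.3 CPM (0.56), followed by Foxa1 (12.6 and 16.9 CPM, 0.40), and Fgfr2, the FGF receptor, was lowest at 232 and 198 CPM (−0.23).

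Genes of AEC1s and transitional cells lay on both sides of 0 in these members. Of 15 AEC1 genes 0 passed the limit (median 0.12, and −0.08 with a minimum of 50 CPM), with S100a6, a calcium-binding protein, highest at 51.8 and 103 CPM (0.98) and Aqp5, a water channel, lowest at 921 and 697 CPM (−0.40). S100a6 stood at 3132 and 4197 CPM in FBs, and 10 cells held 46.8% and 44.0% of its UMIs in members. Of 21 transitional genes 1 rose (against 0.235% of all genes), Lgals1, a galectin (26.5 and 60.9 CPM, 1.17), which is also one of the FB-rich genes above, and the median was −0.00. Krt8 was alike at 436 and 424 CPM, Krt19 lower at 227 and 151 CPM (−0.59), and Cdkn1a, a cell cycle inhibitor and p53 target, higher at 140 and 218 CPM (0.63). The 14 p53 targets had a median of 0.07 and 0 past the limit. Over all genes 0.366% passed it, so neither this 0 nor that of the AEC1 genes sets these lists apart. The rule removed cells of high Hopx, Cldn4 or Sfn, so these values describe what remains.

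In the lists of signalling targets and stress responses in this paragraph 0 genes passed the limit, which 0.366% of all genes did, so the counts say nothing particular of these pathways. TGF-beta response genes had a median of 0.26 (10 of 13 above 0), led by Pmepa1, a feedback inhibitor (185 CPM, 181 to 188, and 339 CPM, 333 to 345, a log2 ratio of 0.87), and Ski, a corepressor of Smads (79.3 and 128 CPM, 0.68). Hes1, a Notch target, stood at 353 CPM (348 to 358) and 593 CPM (585 to 601), a log2 ratio of 0.75. YAP targets had 7 of 7 genes above 0 (median 0.29), with Nt5e highest (14.9 and 21.0 CPM, 0.47). The lowest of them, Cdc42ep3, lay at 0.001 and kept its sign in 11 of 17 alternatives. Over all genes, 4320 of 7644 lay above 0. Immediate early genes of the AP-1 list lay above 0 in 16 of 18 cases (median 0.16), with Atf3 at 136 and 189 CPM (0.47). FGF targets had a median of −0.07 (8 of 11 below 0, from −0.81 to 0.32), BMP targets 0.09 (4 of 8 above 0, from −0.41 to 0.82), and the 4 Wnt targets −0.03 (from −0.52 to 0.16). The lowest FGF target was Fgfbp1, a carrier of FGFs, at 22.6 and 12.5 CPM. ER folding genes had a median of −0.14 (13 of 20 below 0) and the integrated stress response −0.03 (9 of 17 below 0), in which Slc7a11, the cystine importer, stood at 76.3 and 47.8 CPM (−0.66).

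The lists of junction genes and of basement membrane genes held 0 genes past the limit, which 0.366% of all genes passed. Cldn18, the tight junction claudin of alveolar epithelium, stood at 527 CPM (521 to 534) and 764 CPM (755 to 773), a log2 ratio of 0.53. It was the highest of 14 junction genes, which had a median of 0.18 and 10 above 0. The lowest were Gja1 (−0.28), Cldn3 (−0.11) and Cldn7 (−0.05). Lama3 and Lamb3, chains of the laminin under epithelia, stood at 8.99 and 18.1 CPM (0.94) and at 83.6 and 122 CPM (0.54). Lama3 was detected in 21.0% and 37.0% of members and in at most 1.15% of FB barcodes.

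Within each library the members varied along axes that recurred. The genes of highest variance over mean after thinning were headed by Gm42418, Sftpc, Malat1 and Lyz2 in both libraries. Leiden clustering of each library alone gave 5 clusters, of 408, 334, 199, 82 and 75 normal cells and 217, 186, 161, 159 and 50 fibrogenic cells. The clustering used these genes and was run apart, so cluster sizes are not compared between libraries and the clusters are called by number.

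Normal cluster 3 and fibrogenic cluster 2 were both led by Ramp1, Tmem159, Hopx, Hp and Pdgfa, although each member had passed the Hopx limit. Crym stood at 86.5 CPM in the former and 307 CPM in the latter, against 0.475 to 13.7 CPM in the other clusters. Most Crym UMIs thus came from 1 cluster of each library. The same clusters had the lowest Cd177 of their library, 16.1 and 1.07 CPM, and the highest MHC class II sums, 6029 and 8798 CPM. Their AEC1 sums, with Hopx included, were also the highest of their library, at 3169.5 and 3283.6 CPM. Nebl (257 and 416 CPM), Cldn18 (974 and 1365 CPM), Hes1 (498 and 944 CPM) and Lama3 (26.9 and 34.0 CPM) were highest there too. Cxcl15 was lowest there, at 6513 and 2840 CPM, and Sftpa1 only in the fibrogenic library, at 683 CPM. The levels of these genes were thus uneven among members. Glycolysis sums of these clusters, 5702 and 3622 CPM, were the lowest of their library. FB markers outside the rule and without Sparc summed to 418 and 614 CPM in them, against 396 to 418 CPM in the other normal and 563 to 647 CPM in the other fibrogenic clusters. With Sparc, the fibrogenic cluster had the highest sum of its library, at 1284 CPM against 911 to 1048 CPM, as did the normal one, at 953 CPM against 720 to 842 CPM. Mgp made most of the sum without Sparc, and Vim stood at 35.9 CPM in the fibrogenic cluster, against 10.0 to 18.3 CPM in the others of its library. That level rested on few cells, since Vim had a UMI in 36.0% of its cells, against 38% to 51.15% in those others. In addition, 1 fibrogenic member held 177 of the 690 Vim UMIs of all members of its library. The part of FB RNA in these patterns was not tested. Pglyrp1 stood at 31.1 and 10.3 CPM there, and at 251 CPM in normal cluster 1 and 194 CPM in fibrogenic cluster 4. Those last clusters had BC030867, Pglyrp1 and Selenbp1 among their leading genes, and their glycolysis sums were the highest of their library, at 12550 and 11904 CPM.

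Normal cluster 2 and fibrogenic cluster 1 were both led by Adamts6, St6galnac3, Mctp1, Pik3c2g and Ttc23l. Their glycolysis sums were 9002 and 6422 CPM and their MHC class II sums 3738 and 4732 CPM. Fibrogenic cluster 3 was led by Il4i1, Bex2 and Lyz2, with sums of 5951 and 5875 CPM. Normal cluster 5 and fibrogenic cluster 5 were led by genes of DNA replication, Mcm3 and Hells among them, and normal cluster 4 by genes of mitosis such as Birc5 and Cenpa, so the limit on Mki67 and Top2a left some dividing cells. These clusters held 75, 50 and 82 cells. Cycling markers, rule genes included, summed to 831 CPM in fibrogenic cluster 4, against 389 to 466 CPM in fibrogenic clusters 1 to 3. In normal cluster 1 they summed to 388 CPM.

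**Figure D5:**
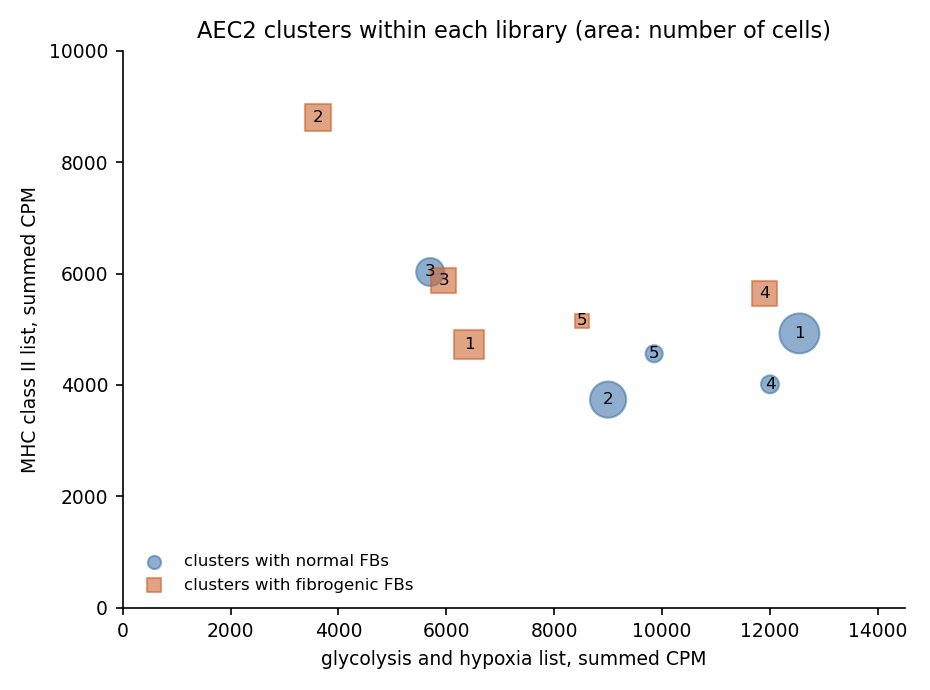
Summed CPM of the glycolysis and hypoxia list (x axis) and of the MHC class II list (y axis) in the 5 AEC2 clusters of each library, numbered by size, with symbol area in proportion to the number of cells. The clusters of lowest glycolysis and highest MHC class II sum are normal cluster 3 (5702 and 6029 CPM) and fibrogenic cluster 2 (3622 and 8798 CPM).

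Sex-linked genes stood at like levels. Ddx3y, on the Y chromosome, stood at 62.2 and 64.3 CPM in members, Uty at 73.5 and 72.9 CPM, and Xist at 0.38 and 0.49 CPM.

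In the other barcodes of these libraries the same rule called more genes in some groups and fewer in others. Of 8039 genes counted in Hopx-high barcodes, 55 rose (0.684%) and 31 fell (0.386%). In Cldn4/Sfn-high barcodes 9 of 8174 rose (0.11%) and 37 fell (0.453%), and in cycling barcodes 8 of 8050 rose (0.0994%) and 5 fell (0.0621%). These groups have fewer cells, the cycling group can share barcodes with the others, and they come from the same libraries, so the counts are set side by side without a test. The cycling barcodes were mostly AEC2s by the other limits. Of 156 (normal) and 72 (fibrogenic), 146 and 69 failed only the limit on Mki67 and Top2a. Ramp1, which rose in the members, had log2 ratios of 0.18, −0.27 and 0.04 in Hopx-high, Cldn4/Sfn-high and cycling barcodes, and Nebl −0.01, 0.02 and 0.05. Pglyrp1 had −0.91, −1.15 and −0.34, and Phgr1 −1.79, −1.002 and −0.57. Basp1 had 1.31, −0.07 and 1.25, and Timp1 1.41, 0.25 and 1.33.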

How the data were processed

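Reads were processed by the authors with Cell Ranger 3.0.1, per the submitters' processing notes (which also name Seurat 3 and the mm10 build). They deposited UMI counts per gene symbol and barcode without normalization for 32285 gene rows. The methods text names GRCm38 and Gencode M17 for the sequencing, without saying whether the organoid tables used them. Membership followed the rule in the report, and the members and the 36 gene lists (618 genes, of which 2, Ero1b and Mx1, were not found) were chosen with earlier results of these data known.

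UMIs were summed over the members of each library and divided by their total to give CPM. Log2 ratios were taken after adding 1 CPM, over genes with a mean of at least 10 CPM and without the 9 rule genes, and the limit for a call was a log2 ratio of 1. With 1 library per condition no test was made. Intervals are exact 95% Poisson (CPM) or Clopper-Pearson (shares), and PCR duplicates are removed only as far as UMIs remove them. Shares in pairs compared every normal with every fibrogenic member after each was thinned to 10000 UMIs. Comparison groups passed the same UMI, Epcam and collagen limits. Hopx-high barcodes had at least 1000 Hopx CPM and fewer than 20000 Sftpc CPM, Cldn4/Sfn-high barcodes at least 1000 of those genes with Hopx below 1000, and cycling barcodes at least 200 of Mki67 and Top2a. FB barcodes had at least 2000 UMIs, 0 Epcam and at least 1000 CPM of Col1a1 and Col1a2.

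Genes were named from the rule genes, the 3 highest and 3 lowest of each list, all surfactant, MHC class II and sex genes, 7 genes named in earlier work on these libraries, the 10 highest and 10 lowest on no list with a mean of at least 20 CPM, the 10 most variable per library, and genes past the limit in opposite directions in 2 groups. Other list members, such as Gapdh and Lamp3, were named after their values were seen, to lay out a pathway. Clusters came from the Leiden algorithm (resolution 0.5, 2000 variable genes, 30 components, 20 neighbours) in igraph 0.11.9 with scikit-learn 1.9.0. Python 3.11.15, numpy 2.4.6, pandas 2.3.3, scipy 1.17.1 and, for Scrublet, scanpy 1.11.5 were used, and the steps were checked on simulated data. Promoters came from RefSeq (GRCm38.p6). The other 4 libraries, of sorted lung FBs, were not used beyond their barcode counts. The alternatives changed the pseudocount, the minimum level, the centring, and the weighting and depth of cells. They also tightened the limits on UMIs, Sftpc, Hopx, Cldn4 and Sfn, and collagen, or removed doublets, mitochondrial, deep or FB-RNA-rich values. The limits on Epcam and on Mki67 and Top2a were not varied. Many genes that the naming rule selects are counted in the list summaries but not reported here by name.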

Additional observations from a re-analysis of the deposited data

Results flagged for a closer look

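Some genes and lists had opposite directions in AEC2s and in other barcodes of the same libraries. With 1 library per condition these differences between groups were not tested. Acta2 had a log2 ratio of 1.34 in AEC2s (6.53 and 18.0 CPM) and of −1.01 in Cldn4/Sfn-high barcodes (112 and 55.4 CPM), and it stood at 779 and 1374 CPM in FB barcodes. MHC class II genes had a median of 0.46 in AEC2s, against −0.18 in Hopx-high and −0.49 in Cldn4/Sfn-high barcodes, where 0 of 7 and 0 of 6 genes lay above 0. Glycolysis and hypoxia genes had a median of −0.53 in AEC2s and 0.27 in FB barcodes, where 21 of 23 lay above 0. Mitochondrially encoded genes of the respiratory chain had a median of 0.20 in AEC2s and −0.068 in FB barcodes, where 12 of 13 lay below 0. A list was singled out when at least 5 of its genes were counted and at least 90% of them lay on one side of 0 in AEC2s and on the other side in the other group.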

How the results depend on the processing

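Each condition had 1 library, so no replicate could be left out. No paired analysis was possible because the 2 organoid libraries are single samples of different conditions and no test was made. Of 28 genes past a log2 ratio of 1, 26 kept their direction in all 18 alternatives, 2 of which were chosen after seeing the data. The exceptions were Tagln (−0.27) and Lyz1 (0.46), both among the 346 normal and 88 fibrogenic members without a UMI of Col1a1 or Col1a2. Only 12 kept a log2 ratio past the limit, whether or not they were counted, in all alternatives except the pseudocount of 10 CPM. Some alternatives could not move the ratio of a gene. The changes of minimum level and the leaving out of genes higher in FB barcodes changed only which genes were counted. The removal of doublets took out 0 members. The median of glycolysis and hypoxia genes stayed between −0.56 and −0.48 and that of MHC class II genes between 0.34 and 0.55, and that of FB markers between 0.40 and 0.71, except where genes over 5 times higher in FB barcodes were left out, which by construction left 1 marker (Col6a1, −0.86). With a minimum mean of 50 CPM, medians turned from 0.12 to −0.08 for AEC1 genes and from 0.10 to −0.06 for AEC2 transcription factors and receptors, and moved to −0.25 for lipid droplet and uptake, 0.23 for MHC class I and 0.53 for TGF-beta response genes. Thinning gave −0.02 for AEC1 and −0.08 for interferon genes, no minimum gave 0.04 for lipid droplet and uptake, and members without collagen UMIs gave −0.27 for cholesterol synthesis. The medians of lamellar body, fatty acid and transitional genes, all within 0.02 of 0, also changed sign in some settings. The count of genes that rose (18) was 5 with a pseudocount of 10 CPM, 3 with a minimum mean of 50 CPM, 42 with no minimum, 10 without members above the 90th percentile of UMIs, and 11 without genes more than 5 times higher in FB barcodes. The count that fell (10) was 6 with either of the first 2 settings, 17 with each cell thinned to 10000 UMIs, and 41 in members with no UMI of Col1a1 or Col1a2, which rests on 88 fibrogenic cells. Members as a share of barcodes were 18.7% and 8.09% with Hopx below 300 CPM, 7.96% (fibrogenic) with Cldn4 and Sfn below 300, and 6.36% and 0.989% without collagen UMIs. Without the member of most UMIs of each gene the counts were 15 and 8. The cause of these changes was not tested.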

Other observations

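Genes of antioxidant and xenobiotic metabolism had a median log2 ratio of −0.00 over 28 counted, with 0 past the limit (against 0.366% of all genes). Cbr2, a carbonyl reductase, was highest at 31.9 and 58.8 CPM (0.86), followed by Ephx1, an epoxide hydrolase, at 15.7 and 26.0 CPM (0.69). Mt2, a metallothionein, stood at 521 and 669 CPM (0.36), and Gstp1, a glutathione transferase, was lowest at 169 and 131 CPM (−0.37). Trf, which carries iron, stood at 6901 and 5137 CPM (−0.43). Apln, the gene of the peptide apelin, stood at 46.9 and 24.4 CPM (−0.92), and Ndnf, a secreted protein, at 26.9 and 13.6 CPM (−0.94). Bmp4 stood at 134 and 100 CPM (−0.41), and Id3, a target of BMP signals, at 7.61 and 14.2 CPM (0.82), with 785 and 773 CPM in FBs. Id1 (−0.33) and Id2 (−0.12), on the same list of BMP targets, lay below 0.

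Retnla, a secreted resistin-like protein of type 2 immunity, was concentrated in few members. It stood at 33.5 and 42.3 CPM (0.33), but 10 cells held 37.1% of its normal and 76.1% of its fibrogenic UMIs, and 1 fibrogenic cell held 479 of 1467. Over 17 of the alternatives its log2 ratio ran from −0.86 to 0.47 and kept its sign in 14. Of 17 airway markers only Cyp2f2 reached the level limit, at 11.6 and 11.2 CPM, and Scgb1a1, which defines club cells, stood at 0.50 and 0.49 CPM. Of 19 genes of gastric and gut epithelium, Phgr1 and Tspan8 (315 and 239 CPM, −0.39) reached it. Of 7 genes named in earlier work on these libraries, Psca had 6 and 2 UMIs and Plac8 115 and 174 UMIs, both under the limit. The other 5 were Crym, which rose, and Cd177, Lyz1, Phgr1 and Ptprn2, which fell. Their calls are thus not independent of that work.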
